A study of Mus musculus with 16 samples.

Results

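The serine/arginine-rich (SR) splicing factors Srsf1, Srsf2, Srsf3, Srsf4, Srsf5, Srsf6, Srsf7, Srsf9, Srsf10 and Srsf11 were examined in abdominal tumors of mice given interleukin-33 (IL-33). The 10 genes were taken by name from the 22298 genes counted in each tumor, and all 10 were measured in all 16 tumors. The list was made after Srsf11 had been seen to differ between the groups, so its difference, and those of the other members, are given as descriptions with no p-value. The tumors grew from MFC cells, a mouse forestomach carcinoma line, injected into the peritoneal cavity of mice of 6 weeks, whose genotype the labels give as WT. Mice of the vehicle group received PBS and those of the IL-33 treatment group 20 μg/kg of IL-33, both intraperitoneally every 2 days. Polyadenylated RNA of 8 tumors of each group was sequenced. The labels do not say which mouse a tumor came from, so every p-value here measures the spread between tumors.

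SR proteins carry 1 or more RNA recognition motifs followed by a domain rich in arginine and serine. They bind enhancer sequences in exons, recruit the U1 and U2 particles to the neighboring splice sites, and several of them also act in mRNA export and translation. SR protein kinases and CLK kinases phosphorylate the arginine/serine domain, and Tnpo3 imports the phosphorylated proteins into the nucleus. Many SR genes hold a poison exon, whose inclusion sends the transcript to nonsense-mediated decay, and SR proteins control their own transcripts and each other's through it. Counts per gene add the coding and the poison-exon transcripts together, so the isoforms were not resolved. In whole tumors, fewer cells of a type and less RNA per cell cannot be told apart.

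The counts per tumor totaled 14139268 to 24290794. All members were well above the detection floor, the lowest value being 30.8 CPM (counts scaled to a common library total) for Srsf4. Counting error was small beside the spread between tumors except for Srsf11. Its log2 SD within groups was 0.11, and 0.07 without vehicle replicate 4, so counting error weighs more there. In the labelled tumor tissue, the epithelial keratins Krt8 (181 to 975 CPM) and Krt19 (44.5 to 690 CPM) were present in every tumor. Other epithelial markers were not. Krt18 and Krt7 were low outside IL-33 replicate 7 (0.0546 to 1.83 CPM and 0.0412 to 2.72 CPM), where they reached 159 and 48.8 CPM. Krt20 ranged from 0.206 to 80.9 CPM. Cldn4 was counted only in vehicle replicate 3 (0.445 CPM) and IL-33 replicate 7 (13.5 CPM). Epcam and Cdh1, the defining epithelial surface markers, were near 0 outside IL-33 replicate 7 (0.0541 to 2.40 CPM and 0.283 to 3.01 CPM), and reached 98.8 and 104 CPM in that tumor. Its summed level of 8 genes of the female reproductive tract was 1510 CPM, against at most 7.66 CPM in any other tumor. Vehicle replicate 4 stood apart in another way, with a normalization (TMM) factor of 0.64 and a summed red cell marker level of 12804 CPM, against 171 to 1078 CPM in the other vehicle tumors. Many results are given with and without vehicle replicate 4, and some also without IL-33 replicate 7. Relations with marker scores were not computed with IL-33 replicate 7 alone left out.

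The sequence just before the start of 3 genes is shown because the values below turn on them. Srsf11 is the gene against which the family was set, and Srsf2 and Srsf7 had the highest correlation of any pair of members over the 16 tumors (with TMM factors). Each run is 120 bases of RefSeq sequence (GRCm38), 5′ to 3′ on the strand of the gene, with motif matches in capitals. The Srsf11 run lies at chr3:158036640-158036759, the Srsf2 run at chr11:116853095-116853214 and the Srsf7 run at chr17:80207308-80207427, all on the minus strand.
Srsf11: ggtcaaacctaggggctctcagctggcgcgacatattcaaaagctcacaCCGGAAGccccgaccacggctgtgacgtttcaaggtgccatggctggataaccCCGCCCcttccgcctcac
Srsf2: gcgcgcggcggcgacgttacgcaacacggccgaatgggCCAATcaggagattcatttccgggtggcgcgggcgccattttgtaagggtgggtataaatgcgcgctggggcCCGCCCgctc
Srsf7: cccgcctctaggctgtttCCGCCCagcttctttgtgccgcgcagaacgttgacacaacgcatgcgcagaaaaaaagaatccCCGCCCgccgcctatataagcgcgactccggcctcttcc
The motifs searched on both strands were the CCAAT box (CCAAT), an ETS site (CCGGAAG), the GC box (GGGCGG), the E-box (CACGTG), an E2F site (GGCGGGAA) and a YY1 site (AAGATGGC). A GC box and an E2F site can share bases. Over windows of 300 bases around the RefSeq start, the GC box was found in 9 of the 10 members, Srsf3 being the exception, and in 35.7% of the 32851 windows of all genes. CCAAT stood in 4 members (Srsf1, Srsf2, Srsf3 and Srsf10) and 37.4% of all windows. The ETS letters stood in 4 members (Srsf4, Srsf5, Srsf7 and Srsf11) and 8.86% of all windows, and the E2F letters in 3 (Srsf1, Srsf4 and Srsf10) and 2.19%. The E-box (7.15% of all windows) and the YY1 letters (2.75%) were in no member. In the runs printed here, Srsf11 holds 1 ETS match and 1 GC box, Srsf2 holds 1 CCAAT and 1 GC box, and Srsf7 holds 2 GC boxes, its ETS match lying elsewhere in its window. These are matches of letters, not measured binding sites.

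Per kilobase of exon, Srsf2 had the highest level of the family, 81.5 ± 25.1 CPM per kb (SD, n = 16). Srsf6 (48.0 ± 12.4), Srsf5 (41.7 ± 9.0), Srsf1 (39.5 ± 12.8), Srsf7 (38.3 ± 10.7), Srsf9 (33.6 ± 7.82) and Srsf3 (31.2 ± 8.52 CPM per kb) followed. Neighbors in this series from Srsf6 to Srsf3 differed by less than their SD. Srsf4 (17.8 ± 3.99), Srsf10 (14.7 ± 3.93) and Srsf11 (14.4 ± 2.57 CPM per kb) formed the low end and likewise did not differ from their neighbor beyond the spread, whereas Srsf3 and Srsf4 did. Exon length here is the union of all annotated exons, from 1653 bases in Srsf9 to 8446 bases in Srsf11, so genes with long alternative exons appear lower on this scale.

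Srsf11 encodes a divergent SR protein known to act together with other SR proteins in the early spliceosome. Its gene spans chr3:158010473-158036639 on the minus strand (GRCm38). In the vehicle tumors it was counted at 112, 115, 126, 58.3, 113, 118, 120 and 121 CPM in replicates 1 to 8. In the IL-33 tumors it was counted at 131, 128, 119, 145, 120, 121, 162 and 144 CPM. Of the vehicle tumors, 7 lay within a narrow band and replicate 4 lay far below it. The IL-33 tumors began inside that band, with replicates 3, 5 and 6 overlapping it, and 5 of 8 were above every vehicle tumor. The mean of the vehicle tumors was exceeded by all 8, with or without replicate 4 in it. The means were 110 ± 21.5 CPM in the vehicle group and 134 ± 15.3 CPM in the IL-33 tumors (SD, n = 8 each), and the vehicle mean without replicate 4 was 118 ± 4.99 CPM. With TMM factors, the fitted log2 change was 0.20 ± 0.09 (SE), and 0.16 ± 0.07 without vehicle replicate 4.

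The shuttling members Srsf1, Srsf3 and Srsf7 bind mRNA in the nucleus and accompany it to the cytoplasm. Srsf1 ranged in the vehicle group from 117 CPM (replicate 4) through a median of 231 to 296 CPM, and in the IL-33 tumors from 94.1 CPM (replicate 6) through 213 to 338 CPM (replicate 4). The IL-33 tumors were thus spread to both sides of the vehicle tumors, and the log2 change was -0.11 ± 0.21. Srsf3, one of the smallest SR proteins, ranged from 185 through 236 to 358 CPM over the vehicle tumors and from 179 through 224 to 414 CPM in the IL-33 tumors. Its means were 246 CPM in both groups, and its highest tumor, IL-33 replicate 3, stood above all vehicle tumors. Srsf7, a close relative of Srsf3 with a zinc knuckle, ranged from 74.0 through 124 to 200 CPM and from 80.6 through 131 to 193 CPM. No IL-33 tumor exceeded the highest vehicle tumor, replicate 7, and the log2 change of Srsf7 was 0.03 ± 0.16.

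Srsf2 stays in the nucleus, where its protein is found in nuclear speckles. It ranged from 127 through 255 to 342 CPM over the vehicle tumors and from 129 through 212 to 389 CPM in the IL-33 tumors. The groups overlapped over almost their whole range, and the log2 change was -0.12 ± 0.19. Srsf9, closely related to Srsf1, ranged from 46.7 through 57.3 to 79.5 CPM and from 31.8 through 52.7 to 74.3 CPM. Its log2 change of -0.29 ± 0.19 was the most negative of the family and became -0.16 without vehicle replicate 4.

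Srsf4, Srsf5 and Srsf6 are related proteins with paired RNA recognition motifs. Srsf4 ranged from 30.8 through 57.9 to 79.9 CPM over the vehicle tumors and from 52.5 through 65.1 to 95.6 CPM in the IL-33 tumors. Its log2 change was 0.12 ± 0.11, and 0.07 without vehicle replicate 4. Srsf5 ranged from 93.5 through 149 to 225 CPM and from 146 through 166 to 228 CPM, with a log2 change of 0.09 ± 0.14. For both genes 6 of 8 IL-33 tumors exceeded the vehicle mean in CPM, and 4 of 8 once replicate 4 was left out of that mean. Srsf6 ranged from 155 through 226 to 297 CPM and from 127 through 248 to 325 CPM, with a log2 change of -0.09 ± 0.16. Srsf10, whose dephosphorylated protein represses splicing, ranged from 45.9 through 103 to 136 CPM and from 62.7 through 108 to 151 CPM. Its log2 change was -0.00 ± 0.15.

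**Figure D1:**
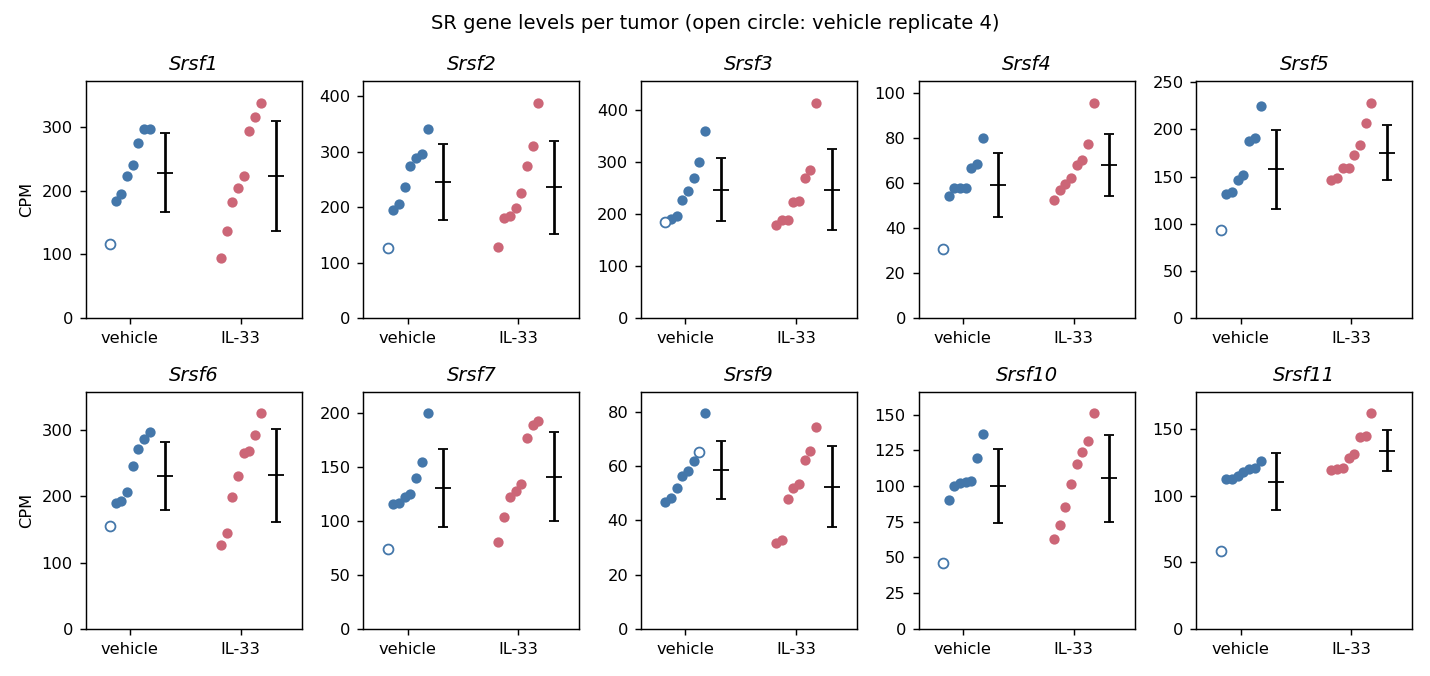
CPM of each SR gene (y axis) in the vehicle and IL-33 tumors (x axis), 1 point per tumor with the mean and SD of 8 tumors, and vehicle replicate 4 marked. The Srsf11 points of the vehicle group sit close together except replicate 4 at 58.3 CPM, while the points of the other genes overlap widely between the groups.

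The changes of the 9 other members lay between -0.29 (Srsf9) and 0.12 (Srsf4), and their difference from that of Srsf11 was not tested. Of them, 3 had a log2 change above 0 with all tumors and 2 without vehicle replicate 4. Their median change was -0.09, and -0.06 without replicate 4, against 0.06 over all genes tested in both cases (16817 and 16773 genes). Without IL-33 replicate 7 the changes of the 9 ran from -0.26 (Srsf9) to 0.10 (Srsf5). Their median was then -0.03, against -0.01 over all genes tested, so the gap to all genes depended on that tumor. By edgeR (quasi-likelihood test, unadjusted p under 0.05), 1 of the 10 members was called (Srsf11), beside 11.2% of all genes tested (9.99% higher and 1.17% lower). Srsf11 was chosen from this contrast, so nothing is read from that count. None of the 16817 genes passed Benjamini-Hochberg adjustment, although 1876 passed unadjusted. DESeq2 likewise gave 0 adjusted and 691 unadjusted calls, and limma's voom with sample quality weights 0 and 966.

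**Figure D2:**
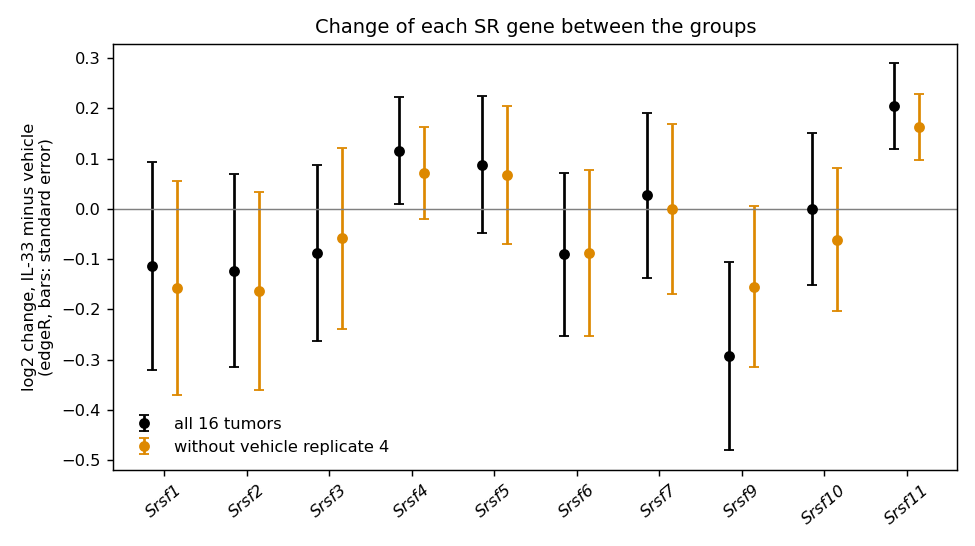
Fitted log2 change, IL-33 minus vehicle, of each SR gene (edgeR with TMM factors, bars show SE) over all 16 tumors and without vehicle replicate 4. Srsf11 lies at 0.20 and 0.16, and the other members between -0.29 and 0.12 with all tumors.

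The sum of the 10 genes was 1567 ± 365 CPM in the vehicle group and 1613 ± 403 CPM in the IL-33 tumors (SD, n = 8 each), a difference far smaller than the spread. Without vehicle replicate 4 the vehicle sum was 1655 ± 289 CPM, so the direction of the difference turned. Srsf11 made up 7.14% ± 1.21 of the SR counts in the vehicle group (5.63% to 8.69%) and 8.67% ± 1.88 in the IL-33 tumors (5.34% to 11.4%). The lowest share of all 16 tumors, in IL-33 replicate 3, and the highest, in IL-33 replicate 6, both came from the IL-33 treatment group. In 4 of 8 IL-33 tumors (replicates 2, 5, 6 and 7) the share was above every vehicle tumor. The difference of 1.53 percentage points became 1.38 without vehicle replicate 4. A share within the family needs no normalization between libraries, but it rises when the other 9 genes fall. In IL-33 replicate 6, which had the highest share, Srsf11 was at 121 CPM and the SR sum was the lowest of its group at 1060 CPM. Against the geometric mean of the other 9 genes, Srsf11 stood at -0.35 ± 0.25 on the log2 scale in the vehicle group and -0.06 ± 0.35 in the IL-33 tumors.

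Vehicle replicate 4 was below every other vehicle tumor in CPM for 9 of the 10 members. Its values there were 0.446-fold (Srsf10) to 0.755-fold (Srsf3) of the median of the other vehicle tumors, and Srsf11 was at 0.495-fold. The exception was Srsf9, the member with the shortest exons, at 1.16-fold. A transcript length index was computed for each tumor over 9582 genes of at least 10 CPM. It was the median log2 deviation of long genes (exons of at least 7165 bases) minus that of short genes (exons of at most 3002 bases). Vehicle replicate 4 had an index of -1.54, whereas the other vehicle tumors lay between -0.39 and 0.37 and the IL-33 tumors between -0.65 and 0.31. Within the family, length did not order the values of this tumor, since Srsf2, with 2958 bases, was at 0.463-fold and Srsf3, with 7899 bases, at 0.755-fold. On the TMM scale, 5 members (Srsf1, Srsf4, Srsf7, Srsf10 and Srsf11) stayed below every other vehicle tumor, and Srsf9 was at 1.87-fold of their median. With the index as a covariate the log2 change of Srsf11 was 0.18 ± 0.06.

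**Figure D3:**
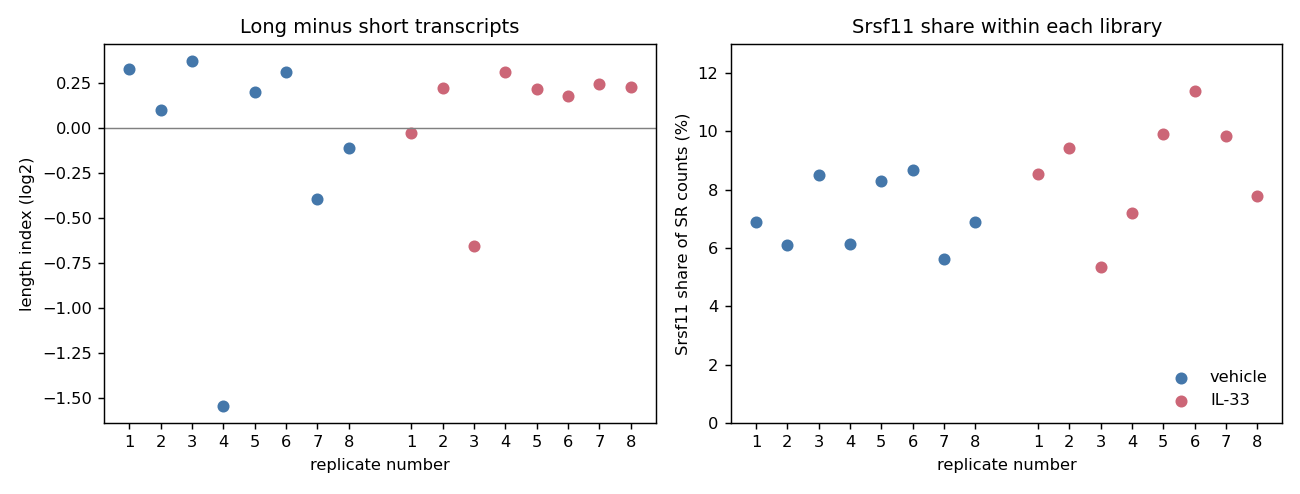
Transcript length index (log2 difference of long and short genes) and the share of Srsf11 in the SR counts (percent) for each tumor of both groups. Vehicle replicate 4 stands alone at an index of -1.54, and the Srsf11 share of the IL-33 tumors runs from 5.34% to 11.4%, beyond the range of the vehicle tumors at both ends.

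Whether the family follows Srsf11 was tested from tumor to tumor within the groups, on log2 CPM with TMM factors. Deviations from each group mean were used, which leaves out the difference between the groups. The contrast that chose Srsf11 also favors a small spread within groups, so these relations were not wholly independent of the choice. None of the 9 other members passed Benjamini-Hochberg adjustment over the 9 relations (two-sided permutation test, 16 tumors). The lowest p was that of Srsf9, whose relation was negative (Pearson r = -0.62, permutation p = 0.0169, adjusted p = 0.152, Spearman rho = -0.34, permutation p = 0.202, adjusted p = 0.901). Without the 2 tumors farthest from the Srsf11 median, its r was -0.32. The highest r was that of Srsf10 (0.25, permutation p = 0.305, adjusted p = 0.687, rho = 0.08), and its r without the 2 farthest tumors was -0.15. Pearson's r was negative for 7 of 9 members over all tumors and for 9 of 9 without vehicle replicate 4 (-0.49 to -0.18, adjusted permutation p 0.344 to 0.567). Over all genes the median r with Srsf11 was 0.05 and 0.03. The 9 signs are not independent, since these members varied with each other. With the transcript length index as a covariate, r was above 0 for all 9 (0.0063 to 0.35, adjusted permutation p 0.950 to 0.979). An r of at least 0.5 with Srsf11 was reached by 0 of 9 members, beside 16.9% of all genes over 16 tumors and 3.22% over the 15 tumors without vehicle replicate 4. Within the vehicle group alone, Srsf9 had r = -0.81 (exact permutation p = 0.0323, n = 8), and within the IL-33 tumors Srsf5 had r = -0.71 (exact permutation p = 0.0383, n = 8), the lowest unadjusted p in each group among 9 relations. Leaving out IL-33 replicate 5 brought 1 relation past the adjusted threshold, again the negative one of Srsf9 (r = -0.75, adjusted permutation p = 0.0396).

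The answer depended on the scaling. With library totals in place of TMM factors, r with Srsf11 was positive for all 9 members, and 4 passed adjustment over the 9 relations, namely Srsf1 (r = 0.58, adjusted permutation p = 0.0345), Srsf4 (0.85, 0.0238), Srsf6 (0.51, 0.0345) and Srsf10 (0.78, 0.0264). On the same scale without vehicle replicate 4, none of the 9 passed (adjusted permutation p 0.278 to 0.854), but r was still above 0 for 8 of 9, from -0.05 (Srsf5) to 0.62 (Srsf4), where TMM factors gave 9 negative values. With IL-33 replicate 7 left out as well, r on library totals ran from -0.34 (Srsf5) to 0.61 (Srsf10).

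**Figure D4:**
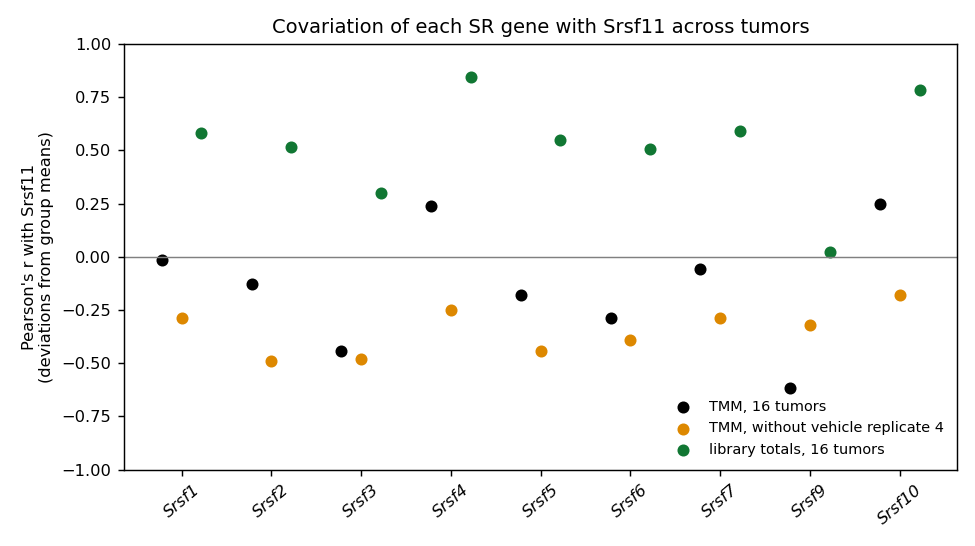
Pearson r of each other SR gene with Srsf11 across tumors (deviations from group means of log2 CPM) with TMM factors over 16 tumors (black), with TMM factors without vehicle replicate 4 (orange) and with library totals over 16 tumors (green). The orange points all lie below 0 and the green points all above it, from 0.024 (Srsf9) to 0.85 (Srsf4).

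The other 9 members varied with each other. Over their 36 pairs the median r was 0.60 (-0.09 to 0.93), and 24 pairs reached 0.5. Without vehicle replicate 4 the median was 0.80 and 28 pairs reached 0.5. Of all genes, 1.39% (Srsf5) to 16.1% (Srsf9) reached 0.5 with one of these 9 members over the 16 tumors, and 7.65% (Srsf5) to 21.7% (Srsf4) without vehicle replicate 4. Pairs of genes in the same libraries share depth and normalization, so these values are descriptions. Srsf2 and Srsf7 were the closest pair over the 16 tumors, at 0.93. Over the 15 tumors without vehicle replicate 4, the pairs Srsf7 and Srsf9, Srsf1 and Srsf10, Srsf6 and Srsf9, and Srsf2 and Srsf7 all stood at 0.93. Srsf5 stood at the edge of the group, with r = -0.09 with Srsf1, 0.48 with Srsf3 and 0.58 with Srsf4.

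Srsf11 varied little from tumor to tumor. A change of its size passes the threshold of the contrast that chose it only with a small spread, so its spread is a description and carries no test. Its SD within groups on the log2 TMM scale was 0.11, and 29 of 9582 genes (0.303%) with at least 10 CPM had a smaller one. The other members had SDs from 0.18 (Srsf4) to 0.43 (Srsf1), and the median of all those genes was 0.41. Without vehicle replicate 4 the SD of Srsf11 was 0.07, with 3 genes (0.0313%) smaller. With library totals its SD was 0.28 (17.6% of genes smaller) over all tumors, against 0.32 (Srsf5) to 0.55 (Srsf1) in the other members, and 0.12 (1.98%) without vehicle replicate 4, against 0.24 (Srsf4) to 0.50 (Srsf1). In CPM, the highest tumor exceeded the lowest 1.44-fold for Srsf11 and 3.59-fold for Srsf1, both without vehicle replicate 4.

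**Figure D5:**
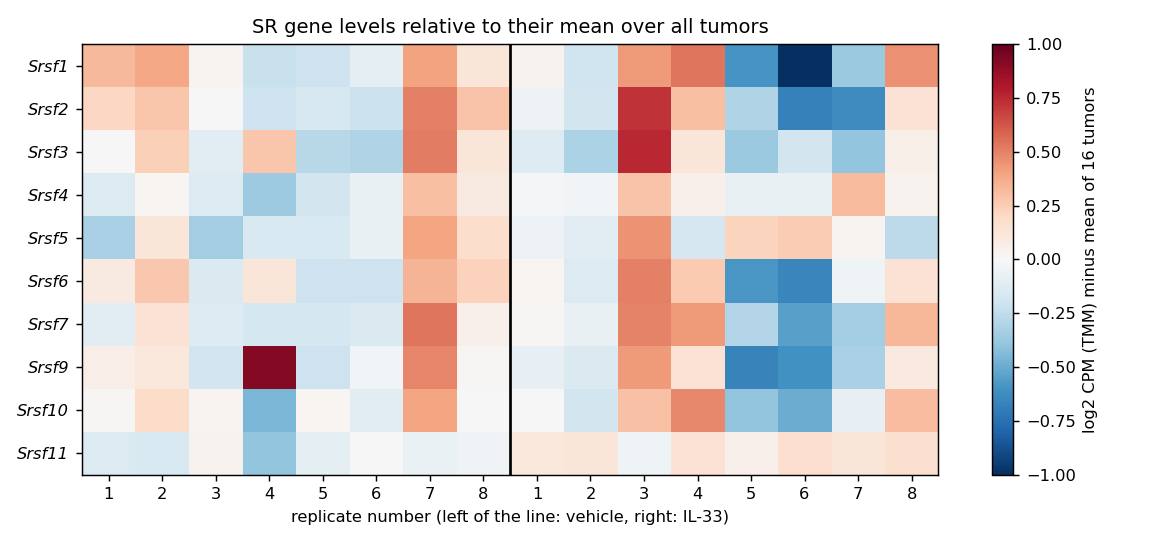
Log2 CPM (TMM) of each SR gene as the deviation from its mean over 16 tumors (red above, blue below), in each vehicle and IL-33 tumor (columns) and each gene (rows). Srsf1, Srsf2 and Srsf7 change together between tumors, while Srsf11 stays near its mean in all but a few, the lowest being vehicle replicate 4.

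The genes whose pattern was most like that of Srsf11 over the 16 tumors, among genes of at least 10 CPM and by r of deviations from group means, were the coatomer subunit Copa (0.88), the kinesin Kif13a (0.88), the U1-associated splicing factor Prpf39 (0.87), the calcium pump Atp2a2 (0.87) and the caspase Casp9 (0.87). Without vehicle replicate 4 the closest were Zfp398 (0.74), the cortisone-activating enzyme Hsd11b1 (0.72), the eIF2α kinase Eif2ak4 (0.72), Zbtb39 (0.71) and the elongation factor cyclin Ccnt2 (0.71). No SR family member was in either list, and the lists shared no gene.

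The rest of the splicing machinery was read from lists of named genes. Of 34 SR relatives outside the 10, 2 were higher at an unadjusted p under 0.05 and 0 lower, with a median log2 change of 0.04. The 2 were Srsf12 and Pnisr, an SR-related speckle protein at 39.95 ± 12.4 CPM in the vehicle group and 58.8 ± 28.0 CPM in the IL-33 tumors (log2 change 0.48 ± 0.22, edgeR adjusted p = 0.426). Pnisr was at 126 CPM in IL-33 replicate 7 and at 10.2 CPM in vehicle replicate 4, and its change was 0.30 and no longer past the unadjusted threshold without that IL-33 tumor. Of the 10 kinases and import factors of SR proteins, none was called and the median was 0.01 (0.02 without vehicle replicate 4). The kinase Clk1 had the smallest p among them (log2 change 0.26 ± 0.18, adjusted p = 0.632). Of 31 hnRNP and related genes, which often oppose SR proteins at the same exons, none was called, with a median of -0.02 (-0.07 without vehicle replicate 4, and 0.03 when IL-33 replicate 7 was left out) and the smallest p in Hnrnpdl (0.19 ± 0.11, adjusted p = 0.584). None of 31 core spliceosome genes was called (median -0.11, and -0.02 without vehicle replicate 4 or without IL-33 replicate 7). The smallest p there was that of Snrpd2, an Sm ring protein, with -0.70 over all tumors and -0.02 without vehicle replicate 4, where it was at 345 CPM. These p-values are edgeR's, and in no list did a gene pass adjustment over all genes.

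Of 18 other splicing regulators, 2 were higher and 0 lower (median 0.10, 0.04 without vehicle replicate 4, and 0.06 when IL-33 replicate 7 was left out). Rbm39, a U2AF-related factor, was at 200 ± 37.9 CPM in the vehicle group and 247 ± 37.9 CPM in the IL-33 tumors (log2 change 0.23 ± 0.10, adjusted p = 0.420). Leaving out vehicle replicate 4 gave a change of 0.21, and leaving out IL-33 replicate 7 gave 0.22. Esrp1, the epithelial splicing regulator, was at 27.1 CPM in IL-33 replicate 7 and at most 0.184 CPM in every other tumor, and its change was -0.01 without that tumor. Of 16 genes known for introns detained in the nucleus, a form of transcript that polyadenylated RNA includes, 3 were higher and 0 lower (median 0.16, and 0.08 without IL-33 replicate 7), namely Rbm39, Pnisr and the cyclin Ccnl1. None of the 16 was called without vehicle replicate 8 or without IL-33 replicate 6. Ccnl1 was at 47.1 ± 6.84 CPM in the vehicle group and 59.6 ± 9.05 CPM in the IL-33 tumors. Its log2 change was 0.26 ± 0.11 (edgeR adjusted p = 0.418). Dropping vehicle replicate 4 gave a Ccnl1 change of 0.26, and dropping IL-33 replicate 7 gave 0.27. Of 15 genes of nonsense-mediated decay and the exon junction, the pathway that removes poison-exon transcripts, 0 were higher and 1 lower (median -0.12, which turned to 0.04 without vehicle replicate 4). That gene was the helicase Upf1 (-0.27 ± 0.13, adjusted p = 0.446), which was called in 4 of the 16 fits that left out a tumor (-0.21 without vehicle replicate 4, and -0.20 when IL-33 replicate 7 was left out, neither called). The 11.2% of all genes called stands beside all of these counts. Among 16 proliferation genes none was called, with a median of -0.08 that turned to 0.08 without IL-33 replicate 7, and Tyms had the smallest p (-0.17 ± 0.21, adjusted p = 0.831). None of 9 mitochondrial transcripts was called (median 0.06, and 0.02 without vehicle replicate 4), mt-Co1 having the smallest p (0.14 ± 0.23, adjusted p = 0.887). Of the nuclear long noncoding RNAs, Tug1 alone was measured here, at 2.50 ± 1.64 CPM and 2.48 ± 1.16 CPM.

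Srsf12, a tissue-restricted relative of Srsf10, was the only called gene of the SR name outside the 10. It had 0, 0, 1, 0, 0, 0, 0 and 1 reads in vehicle replicates 1 to 8 and 0, 0, 0, 1, 4, 1, 40 and 0 in IL-33 replicates 1 to 8. Of the IL-33 reads, 87.0% lay in replicate 7, the tumor with the reproductive tract markers. Against a floor of 3 reads per vehicle tumor (0.173 CPM on average, counting error only), the IL-33 mean of 0.326 CPM was at least 1.89-fold higher. Without replicate 7 the IL-33 mean of 0.0474 CPM was itself under the floor.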

How the data were processed

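RNA-seq of 16 tumors was used, 8 per group, with groups taken from the sample labels. The authors deposited raw counts of reads per gene, and the submitters' processing notes name HISAT2, featureCounts and mm10. The annotation release and the use of strand are not given in the sources used here, so reads of overlapping genes cannot be told apart. Gene identifiers were paired with symbols and exon lengths from GENCODE (GRCm38), for 22255 of 22298 genes.

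The SR members and all gene lists were chosen with earlier results of these data known. CPM are counts relative to the total of the tumor. The 16817 genes with at least 10 counts were fitted with edgeR 4.0.16 (R 4.3.3), using TMM factors, the quasi-likelihood test and Benjamini-Hochberg adjustment. Log2 CPM had a prior count of 2. Correlations used deviations from group means, with 100000 permutations or, within a group, all 40320 orders. Besides the members and Srsf12, the text names up to 2 genes per direction with the smallest p from each list (or the 1 smallest where none was called) and the 5 genes most like Srsf11 with and without vehicle replicate 4. Relations with marker scores were added after the values had been seen, as were settings that combined library totals with leaving out vehicle replicate 4 or IL-33 replicate 7, and most of the fits of the pathway lists without single tumors. Other alternatives were DESeq2 1.42.0, limma 3.58.1 voom with sample quality weights (named voom below), upper-quartile factors, library totals and other filters. Further ones were the replicate number as a block, the length index as a covariate, and each tumor left out in turn. No 2 tumors were alike within sampling noise. Scripts were tested on simulated data.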

Additional observations from a re-analysis of the deposited data

Results flagged for a closer look

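In 26 groups of 8 tumors, covering the 10 members, their summed CPM, the Srsf11 share and the transcript length index, values were examined for a tumor that stood apart by Dixon's criterion, and 5 were found, where chance marks about 5% of groups. Of the members on the log2 CPM (TMM) scale, Srsf11 was low in vehicle replicate 4 (6.51), Srsf7 was high in vehicle replicate 7 (7.57) and Srsf3 was high in IL-33 replicate 3 (8.66). The transcript length index was low in vehicle replicate 4 (-1.54) and, among the IL-33 tumors, in replicate 3 (-0.65). Both tumors with a low length index are thus also tumors in which a member stood apart, Srsf11 at the low end and Srsf3 at the high end, and Srsf11 was lowest of the IL-33 tumors in replicate 3 (116 CPM on the TMM scale).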

How the results depend on the processing

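The log2 change of Srsf11 lay between 0.17 and 0.28 over the 9 alternative settings and between 0.16 and 0.23 over fits that left out a tumor. The median change of the other 9 members lay between -0.11 and 0.01 over the settings and between -0.19 and -0.01 without single tumors, and the Srsf11 share differed by 1.14 to 2.01 percentage points without single tumors and by 0.866 per exon length.

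The number of genes with an unadjusted p under 0.05, 1876 as reported, was 691 with DESeq2, 640 with filterByExpr, 966 with voom, 318 with the replicate block and 659 without vehicle replicate 4 and IL-33 replicate 7 together. Leaving out a tumor gave 651 (IL-33 replicate 7) to 2163 (IL-33 replicate 3), and the split with the former left out was 289 higher and 362 lower instead of 1680 and 196. With DESeq2 it was 424 and 267, and with voom 522 and 444. The cause was not tested. Calls summed over the pathway lists numbered 8 (6 genes, with Rbm39 and Pnisr each in 2 lists), but 0 with the replicate block, and leaving out a tumor gave 2 (vehicle replicate 8 or IL-33 replicate 6) to 10 (IL-33 replicate 3), with 3 for IL-33 replicate 7. The length index of vehicle replicate 4 was -2.20 from the longest and shortest 10% of genes.

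With library totals 4 members varied with Srsf11 instead of 0, and without single tumors 0 to 1. Under library totals r was 0.58 (Srsf1), 0.52 (Srsf2), 0.30 (Srsf3), 0.85 (Srsf4), 0.55 (Srsf5), 0.51 (Srsf6), 0.59 (Srsf7), 0.024 (Srsf9) and 0.78 (Srsf10). On that scale without vehicle replicate 4 it was 0.41 (Srsf1), 0.10 (Srsf2), 0.092 (Srsf3), 0.62 (Srsf4), -0.05 (Srsf5), 0.44 (Srsf6), 0.33 (Srsf7), 0.35 (Srsf9) and 0.56 (Srsf10), and with IL-33 replicate 7 also left out 0.56 (Srsf1), 0.32 (Srsf2), 0.18 (Srsf3), 0.33 (Srsf4), -0.34 (Srsf5), 0.42 (Srsf6), 0.50 (Srsf7), 0.41 (Srsf9) and 0.61 (Srsf10). With the length index as a covariate it was 0.0063 (Srsf1), 0.048 (Srsf2), 0.15 (Srsf3), 0.35 (Srsf4), 0.20 (Srsf5), 0.057 (Srsf6), 0.21 (Srsf7), 0.059 (Srsf9) and 0.19 (Srsf10). Without both tumors and with TMM it was -0.32 (Srsf4) and -0.17 (Srsf10). Leaving out single tumors moved r from -0.29 to 0.13 (Srsf1), -0.49 to 0.14 (Srsf2), -0.53 to -0.26 (Srsf3), -0.25 to 0.44 (Srsf4), -0.44 to 0.0037 (Srsf5), -0.41 to -0.11 (Srsf6), -0.29 to 0.14 (Srsf7), -0.75 to -0.32 (Srsf9) and -0.18 to 0.41 (Srsf10).

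The labels do not say what the replicate numbers mean. Same-numbered deviations correlated at -0.32 to 0.35, and 1 of 8 tumors correlated best with its own number. Such values cannot exclude a pairing, and the main fit did not use the numbers. With the replicate block, r was 0.22 (Srsf1) and 0.079 (Srsf7), and the change of Srsf11 was 0.21 ± 0.12.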

Other observations

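Other measures of each tumor were set against the 10 members within groups, as deviations of mean log2 CPM from group means over 16 tumors. The 40 relations (10 members with 4 measures) were adjusted together by Benjamini-Hochberg, and they were chosen after the values had been seen. How many of all genes would pass these tests was not computed, so counts of passing members are not read as a family trait. A score of 12 leukocyte markers varied with Srsf1 (r = 0.79, adjusted permutation p = 0.0130), Srsf2 (0.72, 0.0298), Srsf6 (0.68, 0.0430), Srsf7 (0.83, 0.00620) and Srsf10 (0.82, 0.00620), and Spearman's rho passed for the same 5. An r of at least 0.5 was reached by 6 of 10 members and by 10.4% of all other genes, and without vehicle replicate 4 by 7 of 10 and 13.3%. Without vehicle replicate 4, Srsf3 (0.64, 0.0456) and Srsf9 (0.66, 0.0467) passed as well. Srsf11 did not pass (r = -0.05, adjusted permutation p = 0.909), nor did Srsf5 (r = 0.14). The summed level of these markers was 252 to 1000 CPM in the vehicle tumors and 302 to 1244 CPM in the IL-33 tumors.

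With a score of 16 proliferation genes, Pearson's r passed for Srsf2 alone (0.66, adjusted permutation p = 0.0430), while Spearman's rho passed for 6 members, from 0.62 (Srsf3) to 0.82 (Srsf2). Over the 15 tumors without vehicle replicate 4, r passed for 0 and rho for 7 members. No share of all genes was computed for rho, here or with the other measures. IL-33 replicate 7 was lowest in these genes (582 CPM summed). Without the 2 tumors farthest from the median score, r was -0.60 for Srsf11 and 0.32 (Srsf5) to 0.82 (Srsf2) for the other members. The rho of Srsf11 was -0.24. An r of at least 0.5 was reached by 2 of 10 members and 16.4% of all other genes, a share near that of the members. Without vehicle replicate 4 it was reached by 3 of 10 and 21.4%. With the 8 epithelial markers r passed for Srsf2 (-0.65, adjusted permutation p = 0.0475) and Srsf7 (-0.60, 0.0430). Without vehicle replicate 4 r passed for 0 members, while rho passed for 7 in both cases. The epithelial score of IL-33 replicate 7 was 5.43, against 0.83 to 3.08 in the other tumors. Its Krt8, at 224 CPM, was within the range of the others, so the score does not measure tumor cell content alone. An r of -0.5 or less was reached by 3 of 10 members and 15.7% of all other genes, and without vehicle replicate 4 by 3 of 10 and 20.9%. Without the 2 tumors farthest from the median epithelial score, r was -0.49 for Srsf11 and -0.91 (Srsf10) to -0.10 (Srsf5) for the other members. The transcript length index varied with Srsf3 (r = -0.61, adjusted permutation p = 0.0430), Srsf9 (-0.77, 0.0130) and Srsf11 (0.83, 0.0382), but rho passed for 0 of 10 members. An r of -0.5 or less was reached by 2 of 10 members and 18.5% of all genes, and of 0.5 or more by 1 member and 20.4%. The relation of Srsf11 rested on the most distant tumors, with r = 0.14 without the 2 farthest and 0.53 (adjusted permutation p = 0.123) without vehicle replicate 4. In those 15 tumors the index varied negatively with Srsf2 (-0.66), Srsf3 (-0.82), Srsf4 (-0.69), Srsf5 (-0.79) and Srsf9 (-0.63) by r, and by rho with 1 member, Srsf5 (-0.81). An r of -0.5 or less was reached there by 7 of 10 members and 13.6% of all genes. These relations too leaned on the most distant tumors. Without the 2 farthest, r was -0.19 (Srsf2), -0.31 (Srsf3), -0.28 (Srsf4), -0.59 (Srsf5) and -0.06 (Srsf9).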
